A study of Drosophila melanogaster with 9 samples.

Results

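Cytosolic ribosomal protein genes were described in 3 neuron and brain cell populations of Drosophila melanogaster, in the adult and in the mid-pupa. They were taken as every gene of the expression table whose symbol begins with RpL (large subunit) or RpS (small subunit), which gave 92 of 16854 genes, 54 of the large and 38 of the small subunit. Symbols of the mitochondrial ribosome (mRpL, mRpS) were not included. The choice used names and no measured value.

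A ribosome joins a small subunit, which reads the messenger RNA, with a large subunit, which forms the peptide bonds, and most ribosomal proteins are used in equal numbers. Making ribosomes is among the costliest activities of a growing cell, and ribosomal protein messages are commonly adjusted together with growth signals. Neurons of the fly brain extend and remodel their axons and dendrites in the pupa, while the adult neuron has stopped growing and works at its synapses.

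RNA was measured in adult brains and at 45 h after puparium formation (45 h APF, the pupal stage of the study), in Kenyon cells (KC, the intrinsic neurons of the mushroom body), in olfactory projection neurons (PN, which carry odour signals from the antennal lobe) and in double-negative cells (DN) that carried neither label. All groups came from 1 genotype. It carried GH146:Gal4>UAS:tomato over the CyO balancer, which puts tomato in many, not all, projection neurons. It also carried MB247:LexA>LexAop:GFP over the TM2 balancer, which puts GFP in Kenyon cells. Males and females were pooled, optic lobes were removed, and cells were dissociated and separated by flow cytometry. Of 9 libraries, 2 per population were adult and 1 per population, made from a pooled sample, was from 45 h APF.

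The values are FPKM, fragments per kilobase of transcript relative to the mapped reads, as the authors deposited them. Each adult value is the authors' mean over 2 libraries, so adult values carry no SD, and each value at 45 h APF is 1 library. Adult libraries were read for 50 bases and those of 45 h APF for 75 bases on another sequencer, so stage, read length and sequencer cannot be told apart. The planned depth was 25 M reads per library, and the depth behind each FPKM value is unknown. Column sums were 720834, 704373 and 611610 FPKM in adult KC, PN and DN and 1055098, 979179 and 886258 FPKM in pupal KC, PN and DN. Summed over their lists, the markers of KC and PN were highest in the population they name. The 5 Kenyon cell markers summed to 1004 FPKM in adult KC, 148 in adult PN and 52.4 in adult DN, and to 868, 16.4 and 21.8 FPKM in pupal KC, PN and DN. The 3 projection neuron markers summed to 0.293, 221 and 11.4 FPKM in adult KC, PN and DN and to 0.936, 73.9 and 7.25 FPKM in pupal KC, PN and DN. At 45 h APF, 2 of these 3 were at least 2-fold higher in PN than in DN. The other 1 was lower in PN, with a log2 difference of -1.45.

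The 92 genes divided into a large group of abundant messages and a few copies that were almost silent. Averaged over the 6 columns, 85 genes reached 1 FPKM, 51 of the large and 34 of the small subunit, and these are the genes kept for comparison. Of the 85, 81 had a mean of at least 100 FPKM and 50 had a mean of at least 500 FPKM, a level that 252 genes reached in the whole table. Among the 7 genes under 1 FPKM were RpL10Aa, RpL22-like, RpL37b, RpS19b, RpS28a and RpS28-like, each a second copy of a gene that was abundant here.

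Ribosomal proteins held 5.14% of all FPKM in adult KC, 2.95% in adult PN and 5.31% in adult DN, against 7.13%, 7.54% and 8.43% in pupal KC, PN and DN. Their share was smaller in each adult population than in any population at 45 h APF, and it was smallest in adult PN. Among the 200 most abundant genes of a column, 26, 5 and 18 were ribosomal protein genes in adult KC, PN and DN, against 50, 53 and 56 in pupal KC, PN and DN. Shares are of length-corrected FPKM, not of reads. In bulk RNA of a sorted population, fewer cells with a message and less message per cell cannot be told apart.

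**Figure D1:**
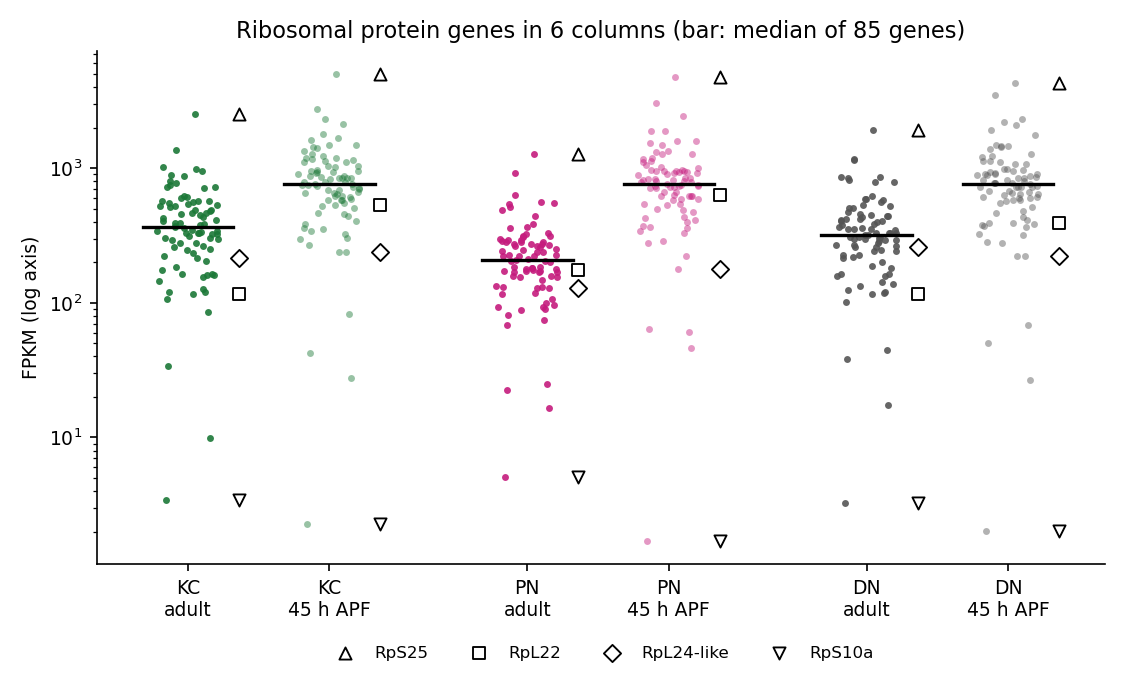
FPKM (log axis) of the 85 kept ribosomal protein genes in each column, adult left of 45 h APF for each population; a point is 1 gene, the bar is the median over genes, and open symbols mark 4 genes. The median was 366, 208 and 320 FPKM in adult KC, PN and DN and between 762 and 768 FPKM in the 3 populations at 45 h APF, while RpS10a lies far below the rest in every column.

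Of the 5 members with the highest mean level, 4 belong to the large subunit. RpS25, a small-subunit protein, was the most abundant, at 2520, 1266 and 1917 FPKM in adult KC, PN and DN and 5005, 4727 and 4304 FPKM in pupal KC, PN and DN. RpL39, a very small protein that lines the exit tunnel of the large subunit, had 1372, 922 and 1172 FPKM in adult KC, PN and DN and 2734, 3076 and 3529 FPKM in pupal KC, PN and DN. RpL40, which is made as a fusion with ubiquitin, had 957, 564 and 867 FPKM in adult KC, PN and DN and 2142, 2438 and 2324 FPKM in pupal KC, PN and DN. For all 3 genes the adult columns lay below all columns of 45 h APF, and adult PN was the lowest.

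RpL13A, a large-subunit protein, had 617, 314 and 534 FPKM in adult KC, PN and DN and 2311, 1887 and 2195 FPKM in pupal KC, PN and DN. RpL38, also of the large subunit, had 986, 442 and 796 FPKM in adult KC, PN and DN and 1689, 1586 and 2084 FPKM in pupal KC, PN and DN. The adult and pupal values of both genes did not overlap. Levels of the 85 genes were correlated between columns. Across genes, Pearson's r of log2 values between pairs of columns ran between 0.92 and 0.99. It is a description over genes that share libraries and are not independent replicates. Levels varied widely among the genes, with an SD of 1.13 to 1.39 on the log2 scale within a column.

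Ribosomal protein messages were broadly lower in the adult than at 45 h APF, and none was called higher. In a fit of cell type and stage over the 6 columns (limma, on log2(FPKM + 1), with p-values adjusted by Benjamini-Hochberg over 8867 genes that averaged 1 FPKM or more), 70 of 85 members were lower in the adult at an adjusted p under 0.05 and 0 were higher. Of all genes tested, 17% were lower and 8.03% were higher. The median difference over members was -1.34 on the log2 scale, against -0.23 over all genes. At an unadjusted p under 0.05, 79 members were lower and 0 were higher. The small subunit had 31 of 34 members lower (median -1.41) and the large subunit 39 of 51 (median -1.28), a difference between subunits that was not tested.

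In 82 of the 85 members, each of the 3 adult columns lay below each of the 3 columns of 45 h APF, a pattern held by 29.5% of all kept genes. The 3 exceptions were RpL7-like, RpL24-like and RpS10a.

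RpL10Ab, which forms the mobile stalk beside the tRNA exit site (chromosome 3L, 11822851 to 11824211), had the lowest stage difference. It had 291, 205 and 309 FPKM in adult KC, PN and DN and 1443, 1188 and 1240 FPKM in pupal KC, PN and DN, a difference of -2.28 ± 0.25 (SE, adjusted p = 0.0069). Its highest adult value was far below its lowest value at 45 h APF.

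RpL13A, given above, differed by -2.17 ± 0.28 (adjusted p = 0.00913). RpL27A, a large-subunit protein, had 340, 133 and 271 FPKM in adult KC, PN and DN and 912, 887 and 895 FPKM in pupal KC, PN and DN, and differed by -1.96 ± 0.32 (adjusted p = 0.0142). RpL22 had 117, 176 and 116 FPKM in adult KC, PN and DN and 532, 635 and 393 FPKM in pupal KC, PN and DN, and differed by -1.92 ± 0.24 (adjusted p = 0.00878). RpL22 had its highest value in PN at each stage, unlike RpL10Ab, RpL13A and RpL27A, for which PN was the lowest adult population. A noncoding gene, CR42491, overlaps RpL22 on the same strand over 1196 bases, and how reads were divided between them is not given in the sources used here.

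The lateral stalk, which recruits translation factors to the large subunit, is built from RpLP0, RpLP1 and RpLP2. RpLP1 had 603, 292 and 421 FPKM in adult KC, PN and DN and 1792, 1483 and 1470 FPKM in pupal KC, PN and DN, with a difference of -1.90 ± 0.28 (adjusted p = 0.0112). RpLP2 had 245, 172 and 300 FPKM in adult KC, PN and DN and 685, 762 and 823 FPKM in pupal KC, PN and DN (-1.69 ± 0.27, adjusted p = 0.0126). RpLP0, the base of the stalk, had 405, 223 and 376 FPKM in adult KC, PN and DN and 654, 547 and 615 FPKM in pupal KC, PN and DN, and its difference of -0.90 ± 0.26 did not pass (adjusted p = 0.051). The columns of the stages did not overlap for any of the 3.

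Of the 3 members made as fusions, RpL40 differed by -1.56 ± 0.31 (adjusted p = 0.0205) and RpS27A, fused with ubiquitin, by -1.64 ± 0.33 (adjusted p = 0.0214), with adjusted p-values of up to 0.0575 and 0.0563 under other scalings. RpS27A had 467, 206 and 292 FPKM in adult KC, PN and DN and 841, 943 and 1074 FPKM in pupal KC, PN and DN. RpS30, which is fused with a ubiquitin-like protein, had 553, 293 and 476 FPKM in adult KC, PN and DN and 869, 715 and 682 FPKM in pupal KC, PN and DN, and its difference of -0.82 ± 0.27 did not pass (adjusted p = 0.0727). RpS30 kept separate stages, as its lowest value at 45 h APF was above its highest adult value.

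At the other end were members with the least negative or positive differences, none of which passed. RpL5, which binds 5S ribosomal RNA, had 569, 330 and 443 FPKM in adult KC, PN and DN and 616, 621 and 667 FPKM in pupal KC, PN and DN (-0.54 ± 0.27, adjusted p = 0.178). RpL36, a large-subunit protein, had 1029, 487 and 867 FPKM in adult KC, PN and DN and 1336, 1169 and 1130 FPKM in pupal KC, PN and DN (-0.67 ± 0.30, adjusted p = 0.143). For both, adult KC came close to the pupal values and adult PN stayed well below them.

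RpL7-like and RpL24-like, whose yeast counterparts are assembly factors of the large subunit rather than parts of the finished ribosome, also lay at this end. RpL7-like had 85.8, 25.1 and 44.3 FPKM in adult KC, PN and DN and 82.1, 61.1 and 68.9 FPKM in pupal KC, PN and DN (-0.60 ± 0.33, adjusted p = 0.204). RpL24-like had 214, 129 and 261 FPKM in adult KC, PN and DN and 239, 179 and 222 FPKM in pupal KC, PN and DN (-0.13 ± 0.25, adjusted p = 0.716). The stages overlapped for both genes.

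RpS10a was the only kept member with a positive difference, 0.70 ± 0.44 (adjusted p = 0.262). It had 3.42, 5.05 and 3.28 FPKM in adult KC, PN and DN and 2.28, 1.71 and 2.02 FPKM in pupal KC, PN and DN, so that all adult values lay above all pupal ones, at a low level. The gene (chromosome 3R, 27652760 to 27653363) lies on the strand opposite to tau and its 604 bases fall within the span of tau, which had 131, 242 and 89.0 FPKM in adult KC, PN and DN and 32.1, 48.2 and 140 FPKM in pupal KC, PN and DN. Whether counting used strand is not given in the sources used here, and the part of tau reads in RpS10a was not tested.

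Parts of the cytosolic ribosome that carry other names changed in the same direction. The gene sta, which encodes the small-subunit protein RpSA, had 474, 356 and 481 FPKM in adult KC, PN and DN and 1152, 946 and 1009 FPKM in pupal KC, PN and DN (-1.25, adjusted p = 0.0205). Rack1, a scaffold bound to the small subunit, had 181, 129 and 163 FPKM in adult KC, PN and DN and 335, 303 and 303 FPKM in pupal KC, PN and DN (-0.998, adjusted p = 0.031). Under other scalings the adjusted p was up to 0.0827 for sta and up to 0.197 for Rack1.

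The fit has 2 residual degrees of freedom, and its p-values measure how far the differences between populations changed from stage to stage, not the spread between animals. With 1 column left out, its population no longer bears on the stage difference, so leaving out either column of a population gave the same median. The members' median was -1.45 without a KC column, -1.08 without a PN column and -1.40 without a DN column. Most or all calls were lost in these fits, which rest on fewer columns. The count of members lower also depends on scaling. It was 27 when each column was scaled to an equal sum, where 8.36% of all genes were lower. The share of lower among all calls was 34.2% there, against 67.9% as deposited.

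Within each population the members were compared between stages as sizes, with no test, since each stage is 1 column. PN showed the lowest values: 82 of 85 members were at least 2-fold lower in adult PN than in PN at 45 h APF on the log2(FPKM + 1) scale, against 31.4% of all genes, and RpS10a was the 1 member at least 2-fold higher, against 24.9% of all genes. The median over members was -1.81 in PN, against -0.30 over all genes. In DN, 56 members were at least 2-fold lower (21.7% of all genes) and 0 were higher (12.1%), with a median of -1.15 against -0.19. In KC, 45 members were at least 2-fold lower (24.6% of all genes) and 0 were higher (19.5%), with a median of -1.02 against -0.31. The counts in DN and KC move with scaling: with each column scaled to an equal sum, 18 members (21.2%) were at least 2-fold lower in adult DN, against 12.8% of all genes, and 8 members (9.41%) in adult KC, against 12.0% of all genes. The KC count thus stood above the share of all genes as deposited and not under that scaling. In PN, 70 members (82.4%) were at least 2-fold lower with equal sums, against 21.7% of all genes.

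The stage differences of the members were spread less than those of all genes, which was not particular to them. In the fit over the 3 populations the members ran between -2.28 and 0.70, and the 73 mitochondrial ribosome genes between -0.98 and 1.30. Within populations the members' stage differences had an SD of 0.46 in KC, 0.50 in PN and 0.47 in DN, while those of all genes had an SD of 1.5, 1.99 and 1.34. In PN the lowest differences included those of RpL27A (-2.73) and RpL13A (-2.58). In KC they were those of RpL10Ab (-2.31) and RpL22 (-2.17). RpL15, a large-subunit protein, had 728, 281 and 417 FPKM in adult KC, PN and DN and 755, 835 and 890 FPKM in pupal KC, PN and DN, so that adult KC was near its pupal level and adult PN and DN were far below theirs.

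**Figure D2:**
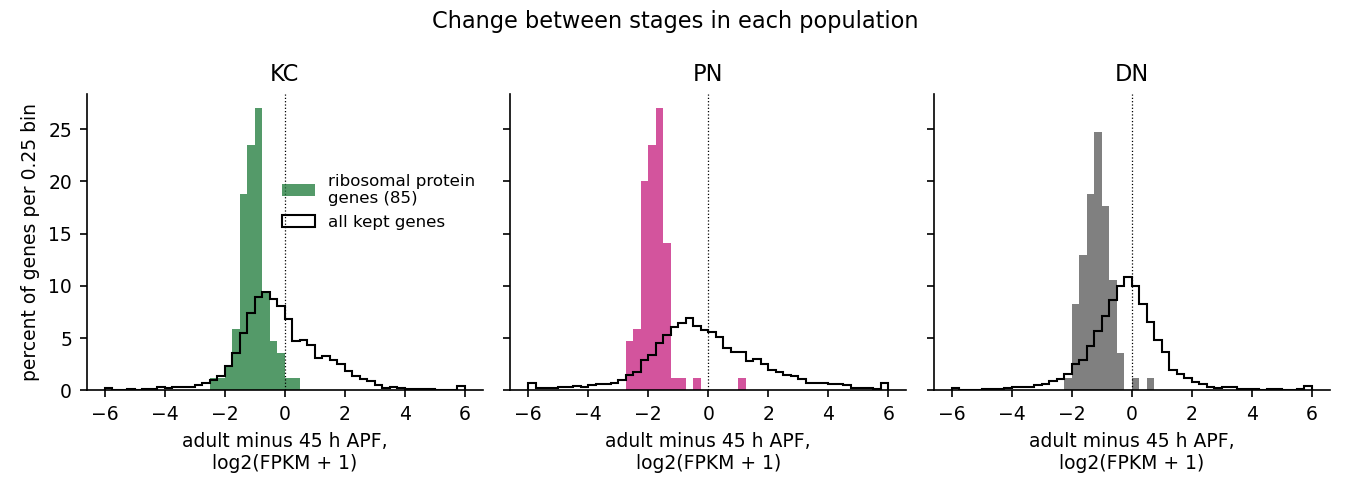
Percent of genes in bins of 0.25 of the adult minus 45 h APF difference in log2(FPKM + 1), for KC, PN and DN; filled bars are the 85 ribosomal protein genes, the black outline is all kept genes, values beyond ±6 are placed in the last bins, and the dotted line marks 0. The ribosomal protein genes form a narrow peak left of 0, farthest left in PN (median -1.81, against -1.02 in KC and -1.15 in DN).

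Markers of other cells and states also differed between the stages. The 7 glial markers summed to 125, 60.6 and 218 FPKM in adult KC, PN and DN and to 174, 1589 and 665 FPKM in pupal KC, PN and DN, with none at 0. In the limma fit 2 of 7 were lower in the adult (28.6%, against 17.0% of all genes). The 5 pan-neuronal markers summed to 1083, 3749 and 1010 FPKM in adult KC, PN and DN and to 207, 290 and 457 FPKM in pupal KC, PN and DN. In the same fit 4 of 5 were higher (80%, against 8.03% of all genes). The part of either marker list in the ribosomal protein result was not tested. The highest glial marker in KC had 100 FPKM at 45 h APF and 104 FPKM in the adult, much of each sum. The median over the 7 glial markers was 6.42 FPKM in KC at 45 h APF and 3.88 FPKM in adult KC. The 13 neuroblast and cell cycle markers summed to 0.913, 7.03 and 4.96 FPKM in adult KC, PN and DN and to 3.45, 17.4 and 31.0 FPKM in pupal KC, PN and DN, with at most 1 of 13 at 5 FPKM or more in any column. The 7 muscle markers summed to 236 FPKM in DN at 45 h APF and to at most 9.36 FPKM elsewhere. Of 4 hemocyte markers only Pxn reached 5 FPKM, with 103, 62.3 and 74.7 FPKM in adult KC, PN and DN and 320, 152 and 98.2 FPKM in pupal KC, PN and DN. The 3 fat body markers summed to 0.742, 0.607 and 3.57 FPKM in adult KC, PN and DN and to 13.4, 13.8 and 36.1 FPKM in pupal KC, PN and DN. The part of these lists was not tested either.

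Transcript length also moved with the stage difference across the genome. Other protein-coding genes were split into 5 groups of equal number by transcript length, and the shortest group had a median stage difference of -0.68 and the longest of 0.83. Ribosomal protein genes are short, with a median longest transcript of 877 bases (288 to 3835), against 2126.5 bases in the other kept coding genes. Set against the shortest group, the members' median stage difference was -0.66 over the 3 populations, -0.33 in KC and -0.89 in PN. Among the members themselves, Pearson's r between stage difference and log2 length was 0.0051 across 85 genes, as a description. The part of length and read length in the result was not tested.

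At 45 h APF the 3 populations had nearly equal levels of ribosomal protein messages. The median difference over members was -0.0048 between KC and PN, 0.03 between KC and DN and -0.0045 between PN and DN, on the log2(FPKM + 1) scale. No member reached 2-fold in any of the 3 comparisons, while 9.07% of all genes were higher by 2-fold or more and 18.1% were that much lower for KC minus PN, 9.54% higher and 19.9% lower for KC minus DN, and 7.31% higher and 9.36% lower for PN minus DN. The 3 columns lay within 1.5-fold of each other in 81 of 85 members, against 29.2% of all kept genes. The SD over members was 0.23 for KC minus PN, 0.21 for KC minus DN and 0.18 for PN minus DN, against 1.25, 1.2 and 0.97 over all genes. The 73 mitochondrial ribosome genes were also more even than all genes, with an SD of 0.37, 0.36 and 0.23 in the same comparisons. Of these 73, 0 were at least 2-fold higher and 1 was lower for KC minus PN. For KC minus DN the counts were 1 and 1, and for PN minus DN 0 and 0.

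The 4 members that spread beyond 1.5-fold at 45 h APF were RpL22, RpL35, RpL41 and RpLP0-like. RpL22 was highest in PN, at 635 FPKM, with 532 in KC and 393 in DN. RpL35, which sits at the exit of the peptide tunnel, was also highest in PN, at 972 FPKM, with 626 in KC and 730 in DN. RpL41, the smallest ribosomal protein, stood out by its low value in KC, 1170 FPKM, with 1892 in PN and 1929 in DN. RpLP0-like, whose yeast counterpart is an assembly factor released before the stalk is built, had 27.8 FPKM in KC, against 46.1 in PN and 26.6 in DN, again highest in PN.

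In the adult the populations were apart, with PN lowest. The median difference over members was 0.81 between KC and PN, 0.12 between KC and DN and -0.64 between PN and DN. At least 2-fold higher in KC than in PN were 22 of 85 members and 0 were lower, against 12.1% and 19.9% of all genes. In PN, 6 members (7.06%) were at least 2-fold lower than in DN and 0 were higher, against 9.49% and 16.9% of all genes. The share of members lower by 2-fold was thus below that of all genes. Between KC and DN, RpL21 alone was at least 2-fold higher in KC and 0 were lower, against 8.39% and 13.1% of all genes. The 3 adult columns lay within 1.5-fold in 8 of 85 members, against 21.8% of all kept genes.

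Adult PN was the lowest of the 6 columns in 81 of 85 members, against 31.3% of all kept genes. The 4 exceptions were RpL3, RpL22, RpLP0-like and RpS10a. Adult KC was the highest adult column in 59 members, against 34.7% of all kept genes. RpL21, a large-subunit protein, had 877 FPKM in adult KC, 309 in adult PN and 434 in adult DN, and 1140, 946 and 983 FPKM in pupal KC, PN and DN, so that its populations differed far more in the adult. RpL8, a core protein next to the peptidyl transferase centre, had 716 FPKM in adult KC, 285 in adult PN and 576 in adult DN, with 1114, 846 and 847 FPKM at 45 h APF. RpL3, also near that centre, had 184 FPKM in adult KC, 208 in adult PN and 261 in adult DN, so that here KC was lowest.

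**Figure D3:**
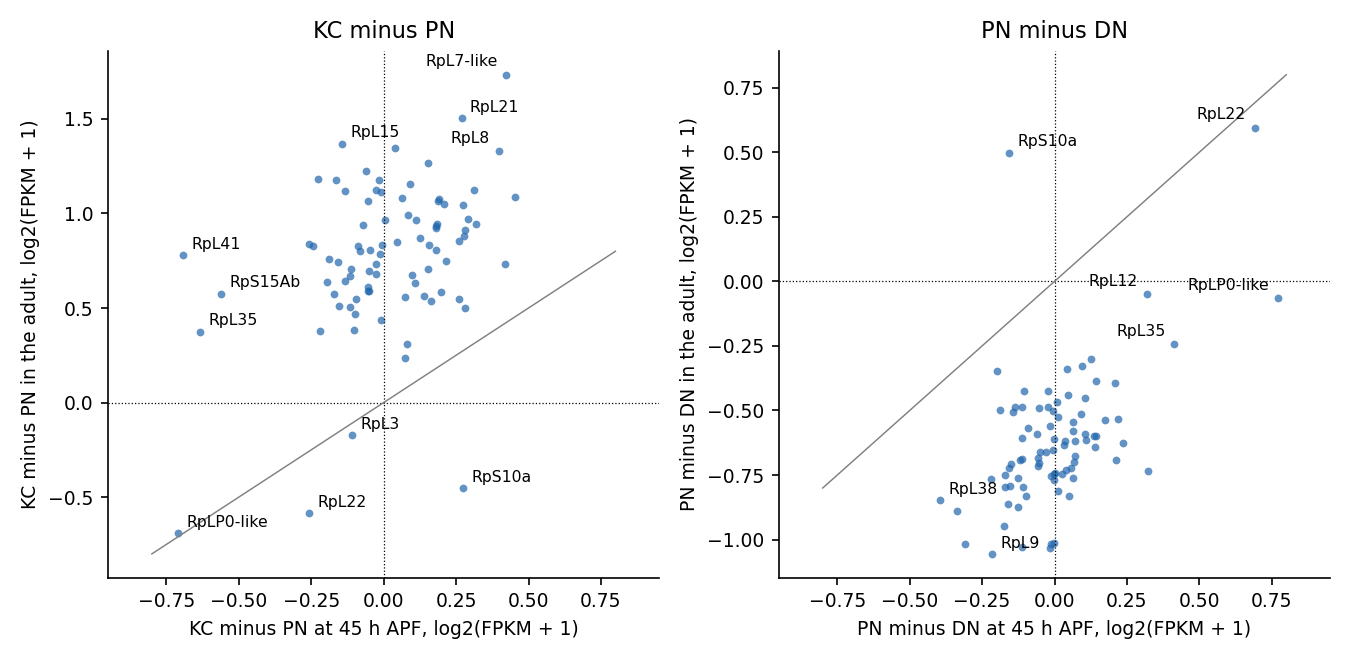
Difference between populations in the adult (vertical axis) against the same difference at 45 h APF (horizontal axis), in log2(FPKM + 1), for 85 ribosomal protein genes; the left panel is KC minus PN, the right panel PN minus DN, the grey line marks equal differences and dotted lines mark 0. Most points lie near 0 on the horizontal axis and away from 0 on the vertical axis, above it at left (median 0.81) and below it at right (median -0.64), with RpL22 and RpLP0-like among the few that stay apart.

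In the fit over both stages, no member passed for a difference between populations. For KC minus PN, limma called 0 members higher and 0 lower, with 1 member, RpL7-like, at an unadjusted p under 0.05, against 0.304% of all genes higher and 0.485% lower. For KC minus DN, 0 members were called and 0 had an unadjusted p under 0.05, against 0.293% and 0.462% of all genes, and for PN minus DN likewise 0 and 0, against 0.0226% and 0%. The members' medians were 0.40 for KC minus PN, 0.08 for KC minus DN and -0.33 for PN minus DN.

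Among the highest KC minus PN differences over both stages were those of RpL7-like (1.08 ± 0.40, adjusted p = 0.295), RpL21 (0.89 ± 0.39, adjusted p = 0.346), RpL8 (0.86 ± 0.37, adjusted p = 0.34) and RpS15. The lowest were those of RpLP0-like (-0.70 ± 0.41, adjusted p = 0.42), RpL22 (-0.42 ± 0.29, adjusted p = 0.482), RpL3, RpL35 and RpS10a. For KC minus DN the range ran between -0.35 for RpLP0-like and 0.61 for RpL21, with RpL29, RpL41, RpLP2 and RpL3 next to the lower end and RpL7-like, RpL26, RpS23 and RpLP1 next to the upper end. For PN minus DN it ran between -0.66 for RpL24-like and 0.64 for RpL22, with RpL9, RpL38, RpL24 and RpS24 next to the lower end and RpLP0-like, RpS10a, RpL12 and RpL35 next to the upper end. The smallest adjusted p of any member for PN minus DN was 0.995.

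In the 13 pairs shown, a main gene was set beside a second gene whose symbol shares its stem, called the second copy here. RpL7-like, RpL24-like and RpLP0-like were paired in this way too. Their yeast counterparts are assembly factors, so their shares need not describe alternative copies of a ribosomal protein. In 6 pairs the second copy was under 1 FPKM on average. RpL22-like, best known from the testis, was listed at 0 in all columns but DN at 45 h APF (0.0602 FPKM). RpL37b was likewise listed above 0 in DN at 45 h APF alone (0.288 FPKM), RpL10Aa in adult PN alone (0.0503 FPKM), and RpS28-like was listed at 0 in all 6 columns. RpS19b reached 0.615 FPKM and RpS28a 0.621 FPKM, both in DN at 45 h APF. These copies stayed below 1 FPKM in every column. RpL37b and its partner RpL37a (now RpL37-2 and RpL37-1) are not the same gene as RpL37A.

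In the other pairs both copies were measured. The share of the second copy was 22.2%, 21.7% and 23.4% for RpS15Ab in adult KC, PN and DN and 11.1%, 14.8% and 11.4% in pupal KC, PN and DN, so that adult shares lay above all pupal ones. RpL24-like held 29.0%, 32.1% and 34.05% of the sum with RpL24 in adult KC, PN and DN and 20.7%, 19.6% and 19.3% in pupal KC, PN and DN, again with no overlap. In both cases the main gene fell, RpS15Aa by 1.77 and RpL24 by 1.04 on the log2 scale (adjusted p = 0.0107 and 0.0378, the second call lost under other scalings with an adjusted p of up to 0.21). RpS15Ab differed by -0.72 ± 0.33 and did not pass (adjusted p = 0.148). How reads that match both RpS15Aa and RpS15Ab were divided is not given in the sources used here, and read length differed between the stages. The change of these shares was not tested.

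RpL7-like held 20.5%, 12.9% and 13.6% of the sum with RpL7 in adult KC, PN and DN and 12.3%, 10.2% and 10.3% in pupal KC, PN and DN, highest in adult KC. RpLP0-like held 2.39%, 6.93% and 4.43% of the sum with RpLP0 in adult KC, PN and DN and 4.08%, 7.78% and 4.14% in pupal KC, PN and DN, highest in PN at each stage. RpS10a held between 0.289% and 2.82% of the sum with RpS10b. RpS14b, which lies beside RpS14a on the X chromosome, held 22.8% to 27.2%, and RpL34a held 39.6% to 45.1% of the sum with RpL34b. RpS14a and RpS14b, and RpL34a and RpL34b, encode near-identical proteins, and their shares are uncertain because reads that match both could be divided in more than 1 way.

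**Figure D4:**
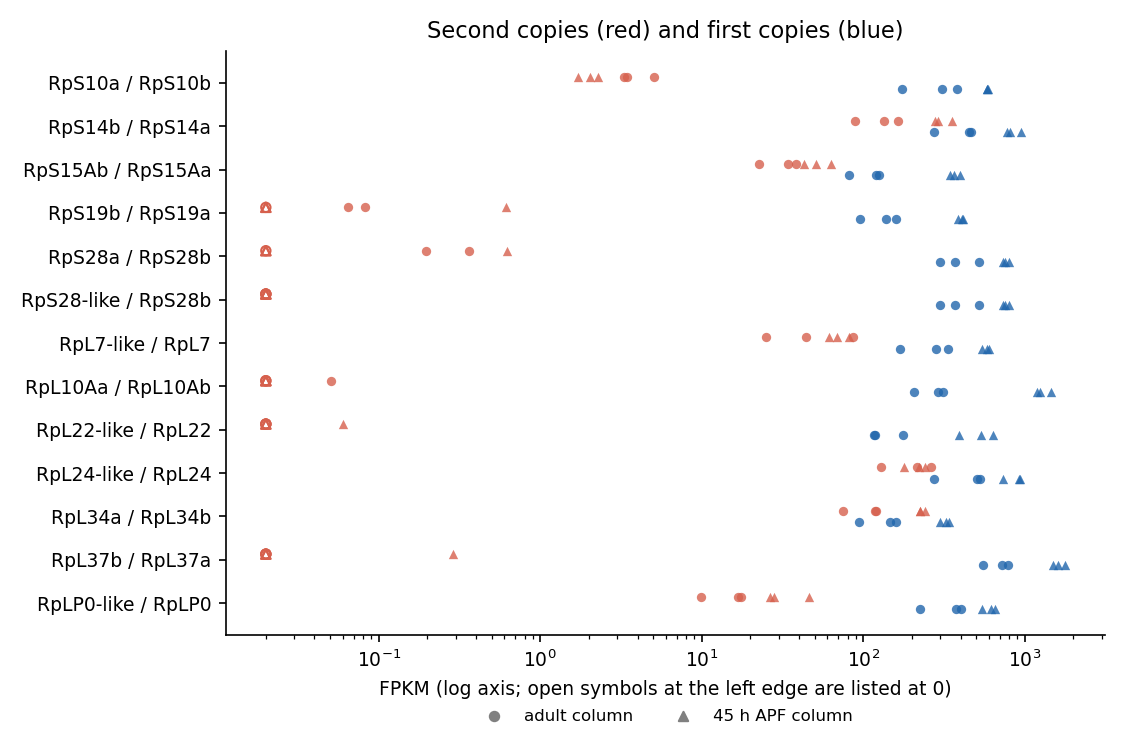
FPKM (log axis) of 13 second copies (red) and their main genes (blue), paired by the stem of the symbol, each row a pair. Circles are the 3 adult columns and triangles the 3 columns of 45 h APF. Open symbols at the left edge are values listed at 0. In every row the adult circles of the main gene lie left of its pupal triangles, while 6 of the second copies average under 1 FPKM.

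The members shared features that the choice by name did not use. Small nucleolar RNA genes, whose products guide modification of ribosomal RNA and are often carried in introns, lay inside 28 of the 85 kept members on the same strand (32.9%), against 53 of 8022 other kept coding genes (0.661%). These 28 genes carried 74 of the 269 annotated small nucleolar RNA genes. The median stage difference was -1.50 in members with such a gene inside and -1.28 in members without. Chromosome arms 2L, 2R, 3L, 3R, 4 and X held 18, 19, 14, 19, 1 and 14 kept members, and their median stage differences were -1.45, -1.44, -1.31, -1.31, -1.18 and -1.25, which lie close together. The annotated spans of 31 kept members overlap another gene that shares their locus in the table, 5 of them on the same strand, so their values may include shared reads.

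Other parts of the translation machinery showed smaller shares of lower genes. Of 10 elongation and termination factors, 4 fell and 0 rose (40% lower, against 17.0% of all genes, with a median of -0.76). They were eIF-5A (-2.51, adjusted p = 0.0195), Ef1alpha48D (-2.11, adjusted p = 0.0271), Ef1gamma (-1.86, adjusted p = 0.0092) and Ef1beta (-1.64, adjusted p = 0.0107). Ef1alpha48D, the elongation factor that brings tRNA to the ribosome, had 99.1, 137 and 97.8 FPKM in adult KC, PN and DN and 166, 1259 and 518 FPKM in pupal KC, PN and DN, an uneven drop that was most visible in PN. Of 33 initiation factors, 10 fell and 0 rose (30.3% lower, against 17.0% of all genes, with a median of -0.74). The 10 were all subunits of eIF2 or eIF3, such as eIF-3p40 (-1.44, adjusted p = 0.0212). The factors outside eIF2 and eIF3 did not pass. Among them pAbp, a poly(A)-binding protein, had 353, 974 and 131 FPKM in adult KC, PN and DN and 116, 37.4 and 181 FPKM in pupal KC, PN and DN (1.94, adjusted p = 0.146). With each column scaled to an equal sum, 3 initiation factors were higher and 0 lower, against 16.1% and 8.36% of all genes. Under the 3 other scalings 3 to 6 were lower, against 10.6% to 11.03% of all genes. Ef1alpha48D had an adjusted p of up to 0.0524 under the scalings, and the calls of the other 3 elongation factors were kept.

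Of 22 ribosome biogenesis factors, 3 fell and 0 rose (13.6% lower, below the 17.0% of all genes, with a median of -0.55). They were NHP2, a protein of the pseudouridylation complex (-1.87, adjusted p = 0.0154), Nopp140 (-1.10, adjusted p = 0.0453) and Non3 (-0.88, adjusted p = 0.0457). Of 11 genes for ribosomal RNA and ribosomal protein gene transcription, 1 rose and 1 fell (18.2% called, against 25.0% of all genes). M1BP, which binds a promoter motif common at fly ribosomal protein genes, had 103, 36.8 and 88.7 FPKM in adult KC, PN and DN and 244, 157 and 168 FPKM in pupal KC, PN and DN (-1.41, adjusted p = 0.0242), lower in each adult column and lowest in adult PN. Myc, a driver of growth and ribosome production, went the other way, at 4.48, 12.5 and 2.72 FPKM in adult KC, PN and DN and 0.253, 0.153 and 1.01 FPKM in pupal KC, PN and DN (2.19, adjusted p = 0.0482). Under the 4 other scalings the calls of NHP2 and Myc were kept, those of Nopp140 and Non3 were lost, and M1BP had an adjusted p of up to 0.0802.

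Of 13 genes of the TOR pathway and translation control, 2 rose and 1 fell (23.1% called, near the 25.0% of all genes). Thor, the 4E-BP repressor of cap-dependent initiation, had 0.821, 0.894 and 1.39 FPKM in adult KC, PN and DN and 3.0, 17.6 and 57.1 FPKM in pupal KC, PN and DN (-3.01, adjusted p = 0.0297). The gene larp, an RNA-binding protein whose mammalian relative binds ribosomal protein messages, had 19.0, 48.4 and 14.6 FPKM in adult KC, PN and DN and 2.62, 1.30 and 6.04 FPKM in pupal KC, PN and DN (2.68, adjusted p = 0.0331). Pdk1, a kinase upstream of Akt and S6k, rose by 1.48 (adjusted p = 0.0289). Of 5 genes that respond to loss of ribosomal proteins, limma called 0, against 25.0% of all genes, and 0 had an unadjusted p under 0.05.

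The mitochondrial ribosome, a separate particle encoded by 73 genes here, showed smaller differences. Of its 73 genes, 0 rose and 2 fell (2.74% called, against 25.0% of all genes, with a median of -0.29). At an unadjusted p under 0.05 in the limma fit, 2 were higher and 15 lower. The medians within populations were -0.76 in KC, -0.23 in PN and -0.05 in DN. PN, where the cytosolic genes had their lowest median, was thus not where the mitochondrial genes had theirs. Under each of the 4 other scalings the 2 genes that fell lost their calls with differences still below 0, and 2 other mitochondrial genes were called higher, while the cytosolic genes had 0 higher in all of them.

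**Figure D5:**
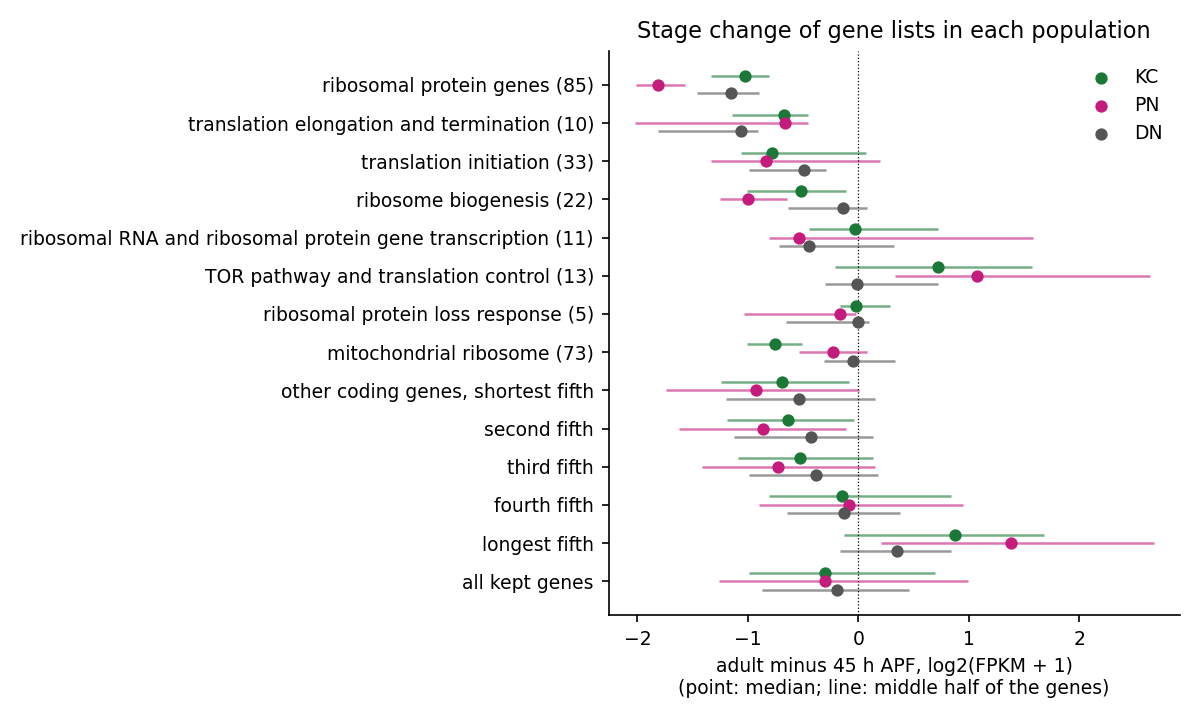
Adult minus 45 h APF difference in log2(FPKM + 1) for gene lists, other coding genes in 5 groups by transcript length and all kept genes, in KC, PN and DN; a point is the median and a line runs between the quartiles, with the number of genes in brackets and a dotted line at 0. The cytosolic ribosomal protein genes have the lowest PN median of these lists (-1.81), the mitochondrial ribosome stays near 0 in PN (-0.23) and DN (-0.05), and the longest coding genes lie above 0.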

How the data were processed

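The authors deposited 1 table of FPKM values per gene, with 1 column per population at 45 h APF and 1 averaged column per population in the adult; adult replicates were not analysed here. The submitters' processing notes name TopHat, Cufflinks and genome build dm6. PolyA RNA went into SmartSeq libraries with an aim of 1 ng, per the labels' protocols. Of 16859 lines, 5 had names turned into dates and were left out. Names were matched to Ensembl release 115 (102 unmatched, all 92 members matched), from which coordinates, transcript lengths and overlaps were taken.

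Values were analysed as log2(FPKM + 1) with a filter at a mean of 1 FPKM, which understates changes of low genes. The additive fit of cell type and stage used limma 3.58.1 in R 4.3.3 with a mean-variance trend, and was tested on simulated data. Comparisons of single columns count members at 2-fold and carry no test. Alternatives were pseudocounts of 0.1 and 5, other filters, 4 scalings, no trend and leaving out each column. Members with values are the 5 most abundant, the 5 highest and 5 lowest of each contrast, second copies, stalk and fusion members and those under 1 FPKM; RpL15 was named after its values were seen. The members were taken by symbol alone, but this gene family and the gene lists were chosen with earlier results of these data known. Some members are not reported here by name.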

Additional observations from a re-analysis of the deposited data

Results flagged for a closer look

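Opposite signs at the stages were seen in the KC minus PN difference of 2 members, and this difference between stages was not tested, since each value rests on 1 column per population. RpL41 had a KC minus PN difference of 0.78 in the adult and -0.69 at 45 h APF on the log2(FPKM + 1) scale. RpS15Ab had a difference of 0.58 in the adult and -0.56 at 45 h APF. RpL41 had 887 and 516 FPKM in adult KC and PN and 1170 and 1892 FPKM in KC and PN at 45 h APF. RpS15Ab had 34.1 and 22.5 FPKM in adult KC and PN and 42.7 and 63.5 FPKM in KC and PN at 45 h APF.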

How the results depend on the processing

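The members' median stage difference stayed below 0 in every population and setting tried, and no setting turned a called member to the other direction. Members lower in the fit (70 as reported) were 27, 36, 42 and 34 (8.36%, 10.6%, 10.7% and 11.03% of all genes) with columns scaled to an equal sum, to an equal sum over other coding genes, by upper quartile and by quantile normalization, 41 without the trend (11.9% of all genes) and 0 with no filter, where 0 of all genes passed and 73 members had an unadjusted p under 0.05. Every member called under a setting with fewer calls was among the 70. Under the same 4 scalings the members at least 2-fold lower in the adult were 8, 12, 22 and 14 in KC (9.41%, 14.1%, 25.9% and 16.5%, against 12.0%, 14.3%, 15.9% and 18.0% of all genes) and 18, 32, 35 and 30 in DN (21.2%, 37.6%, 41.2% and 35.3%, against 12.8%, 16.6%, 16.5% and 17.2%). Adult PN minus DN had 16, 11, 7 and 9 members at least 2-fold lower under the 4 scalings (18.8%, 12.9%, 8.24% and 10.6%). Of all genes, 14.6%, 13.4%, 11.4% and 12.6% were that much lower. RpL21 lost its place in adult KC minus DN under all 4 (0 members). The 1 member higher in adult PN was 0 with a pseudocount of 5 or a filter at 5 FPKM. Scaling moved the median of all genes between -0.23 and 0.23 in the fit, -0.30 and 0.14 in PN, -0.19 and 0.31 in DN and -0.31 and 0.21 in KC. Relative to each population's own median over all genes, the members' median ran between -1.51 and -1.36 in PN, -0.96 and -0.84 in DN and -0.72 and -0.46 in KC. Against the shortest of 5 length groups of coding genes, chosen after seeing the data, the medians were -0.66 in the fit, -0.33 in KC and -0.89 in PN. Leaving out 1 column at a time gave 0 to 24 members lower (24 without adult KC, where 4.24% of all genes were lower), with medians of -1.45 to -1.08 for stage, 0.08 to 0.78 for KC minus PN, -0.15 to 0.28 for KC minus DN and -0.68 to 0.02 for PN minus DN; all other counts stayed at 0. The adult KC minus DN median changed sign with scaling (0.12 as deposited, -0.12 with equal sums). Without a filter and with fewer columns fewer calls follow from the construction of the test; for the rest the cause was not tested. No paired analysis was possible because the table averages the adult replicates into 1 column per population, so their numbers cannot be matched; cell type is already a term of the fit. Depth is unknown, so low copies have no counting interval.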
